A study of Mus musculus with 2 samples.

Results

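The genes Hgf, Ntrk2, Kit and Kitl encode 2 growth factors and 2 receptor tyrosine kinases, and they were followed through the endothelial classes of the mouse lung. They were selected by symbol, as 4 of the 31053 genes counted, and because of their levels by library and class in these same data. Those levels are therefore described here and carry no test. Wild-type (WT) male C57BL/6 mice, 8 to 10 weeks old by the methods for intravenous injection, received phosphate-buffered saline (PBS, control) or 200000 cells of the B16-F10 melanoma line (metastatic) through the tail vein. After 6 h the lungs were digested, and cells bearing PECAM1, an endothelial surface protein, were sorted and profiled on the droplet system of 10x Genomics. Each library pooled 2 mice and each group had 1 library, so the spread between mice is unknown and no test was possible.

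HGF, hepatocyte growth factor, is a secreted ligand for the receptor MET, and mesenchymal cells are its best known source. TrkB, the product of Ntrk2, is a receptor for the neurotrophins BDNF and NT-4, and it is made both with the kinase domain and in a shortened form without it. KIT is the receptor for stem cell factor, the product of Kitl, which exists in a membrane-bound and a shed form. In the lung, general capillary cells (gCap) repair the capillary bed, whereas aerocytes (aCap) are large, thin cells that lie over the air spaces.

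In the GENCODE M21 annotation of GRCm38, all 4 genes lie on the plus strand. Hgf (ENSMUSG00000028864) spans chr5:16553495-16620152, and its 6 transcripts end at 6 positions. Kit (ENSMUSG00000005672) lies on the same chromosome at chr5:75574916-75656722. Kitl (ENSMUSG00000019966) spans chr10:100015630-100100416. Ntrk2 (ENSMUSG00000055254) spans chr13:58806569-59133970, and its 10 transcripts end at 9 positions. The deposited counts are per gene, so the full and shortened forms of Ntrk2, and the forms of Kitl, were summed.

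The 250 bases before the RefSeq start site (GRCm38.p6, plus strand) are shown because the levels of these genes differ by class and library. Capitals mark matches, on either strand, to TATAAA (the TATA box), GGGCGG (the GC box), TTCNNNGAA (a STAT site) and TGANTCA (an AP-1 site).
Hgf, chr5:16553245-16553494: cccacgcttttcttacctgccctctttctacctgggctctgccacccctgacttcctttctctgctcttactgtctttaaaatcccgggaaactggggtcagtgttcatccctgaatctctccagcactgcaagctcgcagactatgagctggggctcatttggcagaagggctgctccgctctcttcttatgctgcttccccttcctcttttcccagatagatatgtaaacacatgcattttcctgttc
Ntrk2, chr13:58806319-58806568: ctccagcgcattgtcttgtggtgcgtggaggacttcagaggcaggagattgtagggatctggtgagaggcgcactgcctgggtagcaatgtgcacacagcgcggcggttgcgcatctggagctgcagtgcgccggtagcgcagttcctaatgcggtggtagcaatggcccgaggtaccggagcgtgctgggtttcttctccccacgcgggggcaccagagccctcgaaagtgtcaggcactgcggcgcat
Kit, chr5:75574737-75574986: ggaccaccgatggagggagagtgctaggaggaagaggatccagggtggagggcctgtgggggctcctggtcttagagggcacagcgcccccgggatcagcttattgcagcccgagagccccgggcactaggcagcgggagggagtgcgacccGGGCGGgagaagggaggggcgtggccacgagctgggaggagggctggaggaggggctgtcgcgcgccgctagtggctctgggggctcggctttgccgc
Kitl, chr10:100015571-100015820: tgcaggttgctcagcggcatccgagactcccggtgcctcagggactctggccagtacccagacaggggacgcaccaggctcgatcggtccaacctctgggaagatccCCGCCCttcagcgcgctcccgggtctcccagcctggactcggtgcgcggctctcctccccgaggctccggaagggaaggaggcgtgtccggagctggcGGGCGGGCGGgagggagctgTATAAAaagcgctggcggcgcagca
For Hgf and for Kit 2 windows were listed, and only the first of each was used. The Hgf and Ntrk2 windows shown held none of these letters. Kit held GGGCGG at 1 position. Kitl held it at 3 positions, of which 2 overlap, and also TATAAA at 1 position. Of all 32851 windows of this length, 32.7% held GGGCGG, 12.4% TATAAA, 7.02% TTCNNNGAA and 6.75% TGANTCA. The Hgf window had a GC content of 50.8% and 4 CG pairs, against a median of 52.4% and 6 over all windows. Ntrk2 had 62.8% and 19, Kit 70.8% and 17, and Kitl 69.2% and 23.

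Barcodes with 1000 to 5000 genes and under 20% mitochondrial UMIs (unique molecular identifiers, each standing for 1 captured RNA molecule) were taken as cells, which gave 7134 control and 6466 metastatic cells out of libraries of 67929614 and 64733724 UMIs. A class needed 2 of its markers. The classes held 4744 control and 4128 metastatic gCap cells, 1364 and 1086 aCap, 63 and 59 artery, and 247 and 304 vein cells. Markers outside the rule followed the class names: summed aCap check markers reached 5385 CPM (UMIs of the list scaled to 1000000 UMIs of the class) in control aCap against 2567 in gCap, and vein check markers 3398 in veins against 161 in gCap. The gCap check markers set gCap apart less, at 7097 CPM in control gCap, 4899 in veins, 3665 in arteries and 3405 in aCap. Averaged over these genes, they were detected in 90.1% of gCap and 88.1% of vein cells. The artery class also carried vein check markers, at 2032 CPM, led by Vwf. RNA of other cells was present in the classes, with epithelial markers (led by Sftpc) at 1792 CPM in control and 1198 in metastatic gCap, and at 143 in control against 4141 in metastatic veins. 16 barcodes were cells in both libraries, where 6.79 would be expected of unrelated barcodes.

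Kit and Kitl were both read in most gCap cells, and Hgf and Ntrk2 in few. All values are CPM, the UMIs of a gene scaled to 1000000 UMIs of the class, and the parentheses hold 95% intervals that cover counting error only. The 3′ counts were not scaled by gene length. Genes are compared with themselves across classes and not with each other.

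Hgf stood at 20.9 (19.3–22.5) in control gCap, 8.30 (6.71–10.2) in aCap, 7.25 (4.15–11.8) in veins and 4.06 (0.491–14.7) in arteries. In the metastatic library it stood at 44.6 (42.1–47.1), 15.2 (12.8–17.9), 11.2 (7.56–16.01) and 16.4 (7.10–32.4) in the same order. gCap was highest in both libraries, while the intervals of the other 3 classes overlapped. The arterial values rest on 2 and 8 UMIs and the venous ones on 16 and 30.

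Ntrk2 stood at 14.5 (13.2–15.9) in control gCap and 7.33 (5.84–9.08) in aCap. The metastatic library gave 21.8 (20.1–23.6) and 13.2 (10.99–15.8). It was nearly absent from veins, with 0 UMIs among 2206077 in control, which allows up to 1.67 CPM, and 4 UMIs in metastatic veins. In arteries 1 and 3 UMIs were counted, too few to place that class between aCap and vein.

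Kit, a receptor also used by mast cells and blood progenitors, stood at 615 (606–624) in control gCap, 220 (212–229) in aCap, 176 (141–218) in arteries and 143 (128–160) in veins. The metastatic values were 717 (708–727), 260 (250–271), 216 (177–261) and 108 (95.9–121). The order of the classes was the same in both libraries, although the aCap and arterial intervals overlapped in both, and the arterial and venous ones in control. No barcode outside the classes carried 2 mast or basophil markers, and these markers summed to 0.423 and 0.461 CPM in gCap. In arteries they reached 28.4 and 16.4 CPM, on 14 and 8 UMIs of Mcpt4, the only gene of the list read there, and their part in the arterial Kit values was not tested.

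Kitl followed another order and peaked in aCap, at 2050 (2023–2076) in control and 2306 (2275–2337) in the metastatic library. It stood at 666 (656–675) and 616 (607–625) in gCap and at 462 (404–526) and 444 (387–507) in arteries. Veins were lowest, at 221 (202–242) and 220 (202–238). Barcodes of 11 to 50 UMIs, which hold free RNA, had Kitl at 206 (172–243) and 228 (195–265). They had Kit at 102 (79.1–130) and 107 (84.6–134). For both genes these intervals overlapped the venous ones, and the part of free RNA in the venous levels was not tested.

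**Figure D1:**
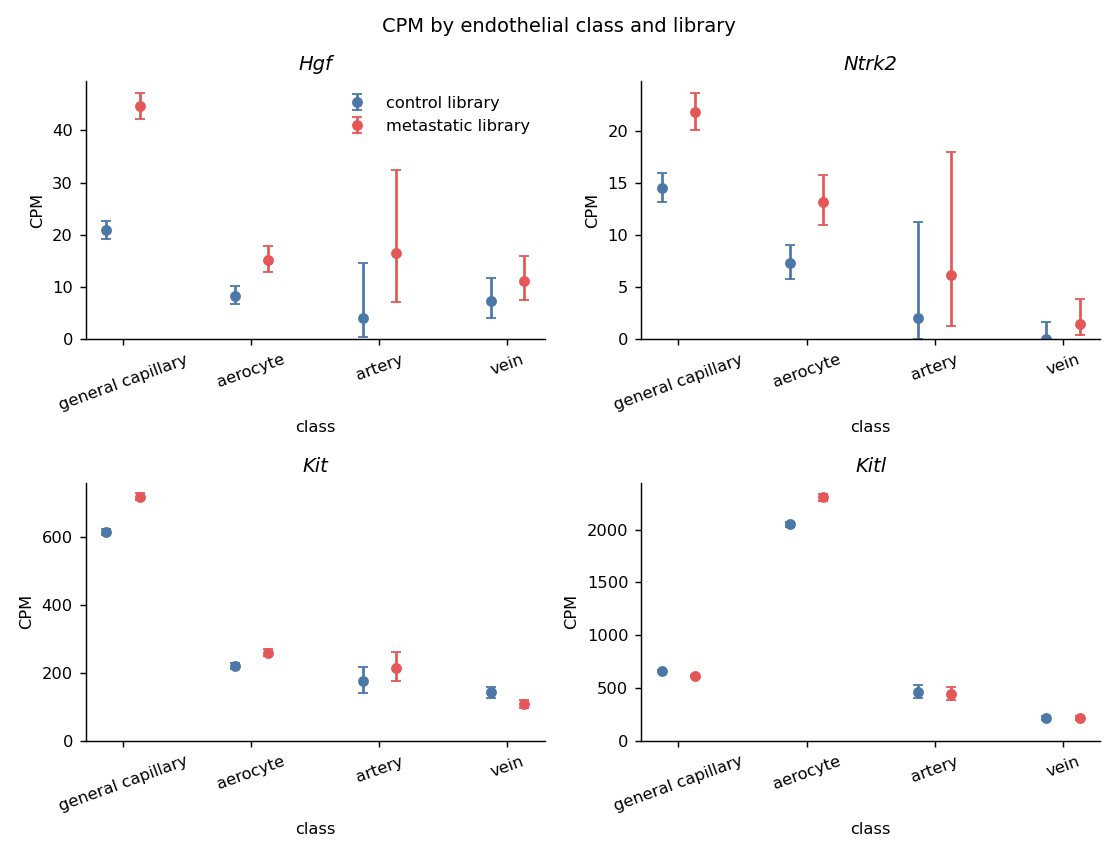
CPM (vertical axis, linear, from 0) of each gene in the 4 endothelial classes (horizontal axis), with the control library in blue, the metastatic library in red and exact 95% Poisson intervals as bars. Hgf, Ntrk2 and Kit are highest in general capillary cells and Kitl in aerocytes, in both libraries.

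Set against gCap of the same control library, aCap had 3 of the 4 genes lower and 1 higher by at least 1.5-fold, where 14.1% of the 11519 genes compared were lower and 9.56% higher. Hgf was 2.51-fold lower (2.02–3.16), Ntrk2 1.98-fold (1.56–2.54) and Kit 2.79-fold (2.68–2.92), and Kitl was 3.08-fold higher (3.02–3.14). In the metastatic library, where 13.2% and 9.64% of genes were lower and higher, the same genes were 2.92-, 1.65- and 2.76-fold lower and Kitl 3.74-fold higher (3.67–3.82). The Kitl intervals of the libraries did not overlap. Because the members were chosen from levels by class, nothing is read from the counts of genes past 1.5-fold.

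Veins, set against the same gCap cells, had all 4 genes lower by at least 1.5-fold in either library, where 14.3% of genes were lower in control and 12.0% in metastatic. None of the 4 was higher, where 8.87% and 11.5% of genes were. Kit was 4.29-fold lower (3.84–4.82) in control and 6.64-fold lower (5.91–7.49) in metastatic veins. Kitl was 3.01-fold (2.75–3.30) and 2.80-fold (2.58–3.05) lower.

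The classes also differed in how many molecules of each gene they held. Of all Kitl UMIs in control cells, aCap held 50.3% and gCap 44.3%, although aCap made up 19.1% of the cells. Of the Kit UMIs, gCap held 82.5% and aCap 10.9%. gCap also held 79.5% of the Hgf and 75.0% of the Ntrk2 UMIs. In the metastatic library the gCap share was 81.3% for Kit, 78.8% for Hgf and 68.0% for Ntrk2, and aCap held 51.3% of Kitl. These shares depend on class size. gCap made up 66.5% of control and 63.8% of metastatic cells, and aCap 16.8% of metastatic cells. Over all genes, gCap held 30714581 and aCap 11325486 of the 48785420 UMIs of control cells. In metastatic cells they held 28189242 and 9385728 of 45710045.

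**Figure D2:**
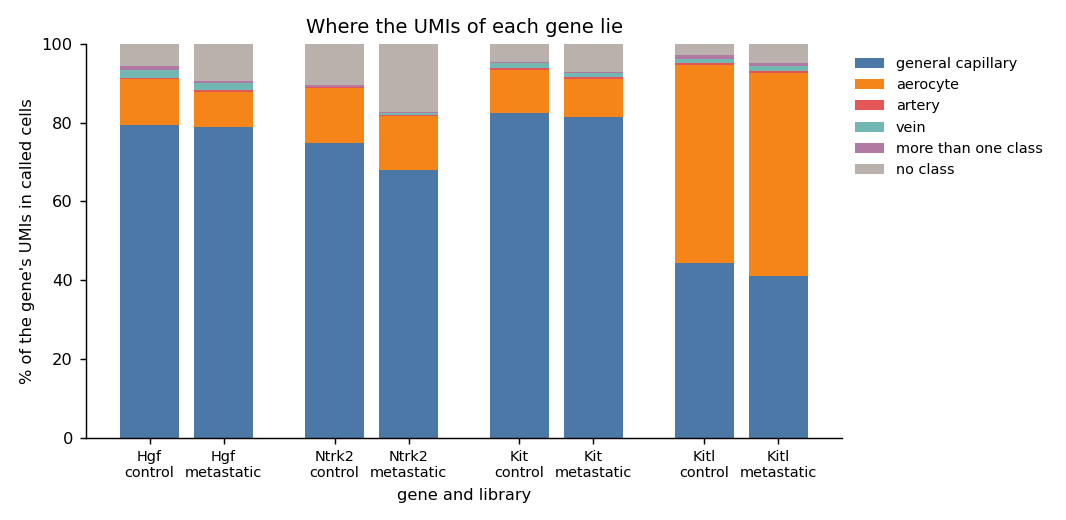
Share of each gene's UMIs in called cells (vertical axis, %) that fell in each class, for each gene and library (horizontal axis). Aerocytes hold 50.3% and 51.3% of Kitl but 10.9% and 9.82% of Kit.

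Within the capillary bed Kit and Kitl ran in opposite directions along the number of aCap rule markers in a cell (Ednrb, Fibin and Tbx2). In control capillary cells with 0, 1, 2 and 3 markers, Kit stood at 619, 606, 524 and 114 CPM. Kitl stood at 639, 732, 995 and 2419 in the same cells. The metastatic library gave 729, 682, 542 and 154 for Kit and 588, 700, 1339 and 2669 for Kitl. For either gene the widest step lay between 2 and 3 markers. Deeper cells reveal more markers: median depth ranged from 5887 UMIs in control cells with 0 markers to 8178 in those with 3, and its part in the trend was not tested.

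Hgf and Ntrk2 were lowest in cells with 3 markers. Control Hgf stood at 21.1, 20.2, 19.1 and 4.53 CPM, and metastatic Hgf at 44.1, 45.97, 30.4 and 9.53. Control Ntrk2 stood at 15.0, 13.4, 15.0 and 4.65, and metastatic Ntrk2 at 21.9, 21.7, 18.3 and 11.3. The rule places cells with 2 markers in aCap. In CPM these cells lay nearer to gCap than to cells with 3 markers for Kit and Kitl. On a fold scale metastatic Kitl went the other way, at 616 in gCap, 1339 with 2 markers and 2669 with 3.

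**Figure D3:**
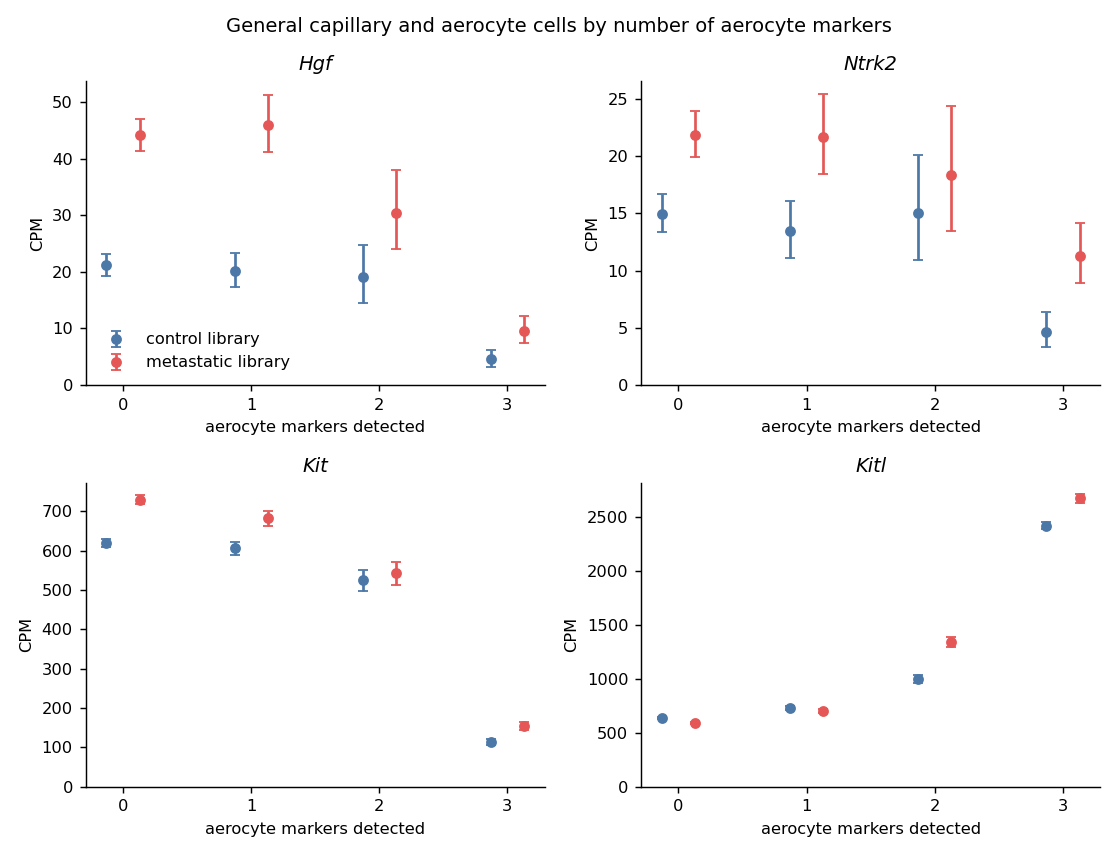
CPM (vertical axis, linear, from 0) in capillary cells grouped by how many of the 3 aerocyte markers were detected (horizontal axis), with the control library in blue, the metastatic library in red and exact 95% Poisson intervals. Kit goes down from 619 to 114 and Kitl up from 639 to 2419 in the control library.

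Inside gCap, Kit was lower in cells with 1 marker of a larger vessel. Against gCap cells without any marker of another class, Kit was lower by 0.39 (0.30–0.49) on the log2 scale in control cells with 1 artery marker and by 0.43 (0.32–0.55) in those with 1 vein marker. In the metastatic library it was lower by 0.26 and 0.20. Kitl was lower with 1 vein marker, by 0.69 (0.56–0.82) in control and 0.45 (0.33–0.57) in metastatic cells, and close to level with 1 artery marker (log2 ratios of 0.12 and 0.11). Ntrk2 with 1 artery marker had a log2 ratio of 0.64 (0.20–1.05) in metastatic cells and of 0.00 (-0.63 to 0.57) in control cells.

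The next comparison asked how the libraries differed 6 h after injection. In gCap, 2 of the 4 genes, Hgf and Ntrk2, were higher by at least 1.5-fold in the metastatic library, against 4.62% of the 12067 genes compared, and 0 were lower, against 2.36%. Because the members were chosen from this contrast, nothing is read from that count. Kit and Kitl stayed within 1.5-fold.

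Hgf counted 641 UMIs in control gCap and 1256 in metastatic gCap. Scaled to the class totals, the metastatic library was 2.13-fold higher (1.94–2.35), a log2 ratio of 1.09. In aCap the counts were 94 and 143, a 1.84-fold difference (1.41–2.41). Within gCap the log2 ratio was 1.06 in cells with 0 aCap markers and 1.19 in those with 1. Mesenchymal markers, the list that covers the usual Hgf source, summed to 25.6 CPM in control and 37.5 in metastatic gCap, with 7 of 7 genes detected in both. Monocyte markers summed to 314 and 244 and platelet markers to 162 and 273, and leaving out barcodes with platelet markers gave a log2 ratio of 1.08. Among barcodes of 11 to 50 UMIs, which hold free RNA, Hgf stood at 3.05 and 12.4 CPM, on 2 and 9 UMIs.

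One alternative turned the direction of Hgf, Ntrk2 and Kit in gCap. It subtracted the profile of the 11 to 50 UMI barcodes at a share set by the median of 7 epithelial, red cell and neutrophil genes. That share came to 86.6% in control and 30.8% in metastatic gCap, and the highest of the 7 genes, Sftpc, stood at 3.52 and 2.39 times its level in that profile. The log2 ratio of Hgf became -1.21. With the lowest of the 7 genes, chosen after these values were seen, the shares were 5.70% and 4.68% and the ratio was 1.07.

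Ntrk2 counted 446 and 615 UMIs in gCap, a 1.502-fold difference (1.33–1.70) and a log2 ratio of 0.59, at the edge of the limit of 0.58. It was past that limit in 6 of 15 alternatives, with a log2 ratio of 0.92 when 3 markers were required and of 0.40 in cells of 4000 to 8000 UMIs. In aCap the counts were 83 and 124, a 1.80-fold difference (1.35–2.41), of which a single metastatic cell gave 15 UMIs. In cells of 4000 to 8000 UMIs the aCap log2 ratio was 0.25. In aCap, 2 of 4 genes were past 1.5-fold higher, where 3.99% of 10464 genes were, and 0 were lower, where 1.87% were. The members were chosen from levels by library and class, so nothing is read from this count either.

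Kit differed less, at 1.17-fold (1.14–1.19) in gCap and 1.18-fold (1.12–1.2498) in aCap. In veins, Kit was 1.33-fold lower (1.13–1.56) in the metastatic library. That venous direction turned when 3 markers were required (log2 ratio of 0.11) and in cells of 4000 to 8000 UMIs (0.24). The metastatic veins were also those with the high epithelial RNA, whose part in this value was not tested. In arteries the log2 ratio of Kit was 0.29 (-0.13 to 0.72), on 87 and 105 UMIs.

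Kitl moved little and not one way: it was 1.08-fold lower (1.06–1.10) in metastatic gCap and 1.13-fold higher (1.10–1.15) in metastatic aCap. The venous log2 ratio was -0.01 (-0.19 to 0.17) and the arterial one -0.06 (-0.33 to 0.22). Neither Kit nor Kitl was past 1.5-fold in arteries, where 6.95% of genes were higher and 5.43% lower, or in veins, where 5.74% were higher and 2.69% lower. Hgf and Ntrk2 had under 50 UMIs in arteries and veins and were not compared there.

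**Figure D4:**
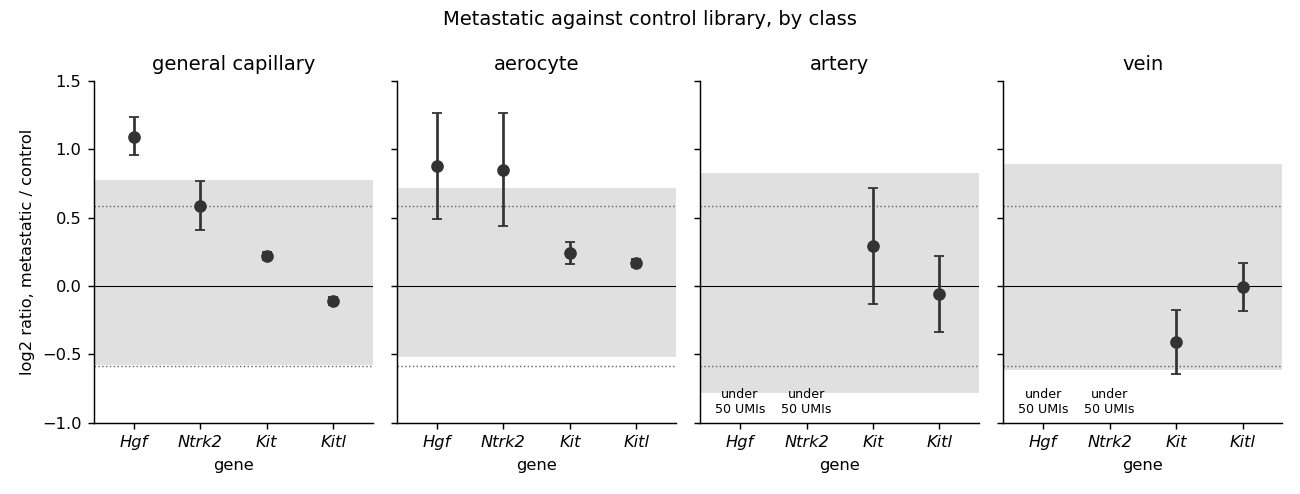
Log2 ratio of the metastatic to the control library (vertical axis) for each gene (horizontal axis) in the 4 classes, with exact 95% intervals. Grey bands hold the middle 95% of all genes compared and dotted lines mark 1.5-fold. Hgf lies above the band in general capillary cells, at 1.09, and in aerocytes, at 0.88. Ntrk2 lies above it in aerocytes, at 0.85, where 1 metastatic cell gave 15 of its 124 UMIs, and the value without that cell was not computed. The genes were chosen from this contrast, so nothing is read from their place against the band.

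Shares of cells were compared after each cell had been thinned to 2000 UMIs. Hgf was detected in 3.90% (3.37–4.50) of control and 7.66% (6.86–8.52) of metastatic gCap cells, and in 1.92% and 2.42% of aCap cells. Ntrk2 was detected in 2.52% (2.09–3.01) and 3.72% (3.16–4.35) of gCap cells, and in 1.40% (0.847–2.18) and 2.51% (1.66–3.64) of aCap cells. Intervals of the libraries parted for both genes in gCap and overlapped for both in aCap. At 1000 UMIs per cell the gCap intervals of Ntrk2 overlapped too, at 1.41% (1.10–1.79) and 1.502% (1.15–1.92). Before thinning, Hgf was detected in 10.9% and 21.3% and Ntrk2 in 7.02% and 9.96% of gCap cells.

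Kit was detected in 65.8% and 69.0% of gCap cells and in 23.6% (21.4–25.99) and 29.2% (26.5–32.1) of aCap cells. Kitl was detected in 67.0% and 62.1% of gCap cells and in 91.9% and 92.2% of aCap cells. Before thinning these shares were 88.9% and 90.7% for Kit and 89.4% and 87.3% for Kitl in gCap. Lymphoid cells, which should lack endothelial transcripts, served as background, with Kit in 1 of 67 and 1 of 72 cells and Kitl in 3 and 5. Hgf and Ntrk2 were found in 0 of these cells, which allows up to 5.36% in control and 4.99% in metastatic lymphoid cells. For these 2 genes the lymphoid cells were therefore too few to set a background below most gCap shares.

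**Figure D5:**
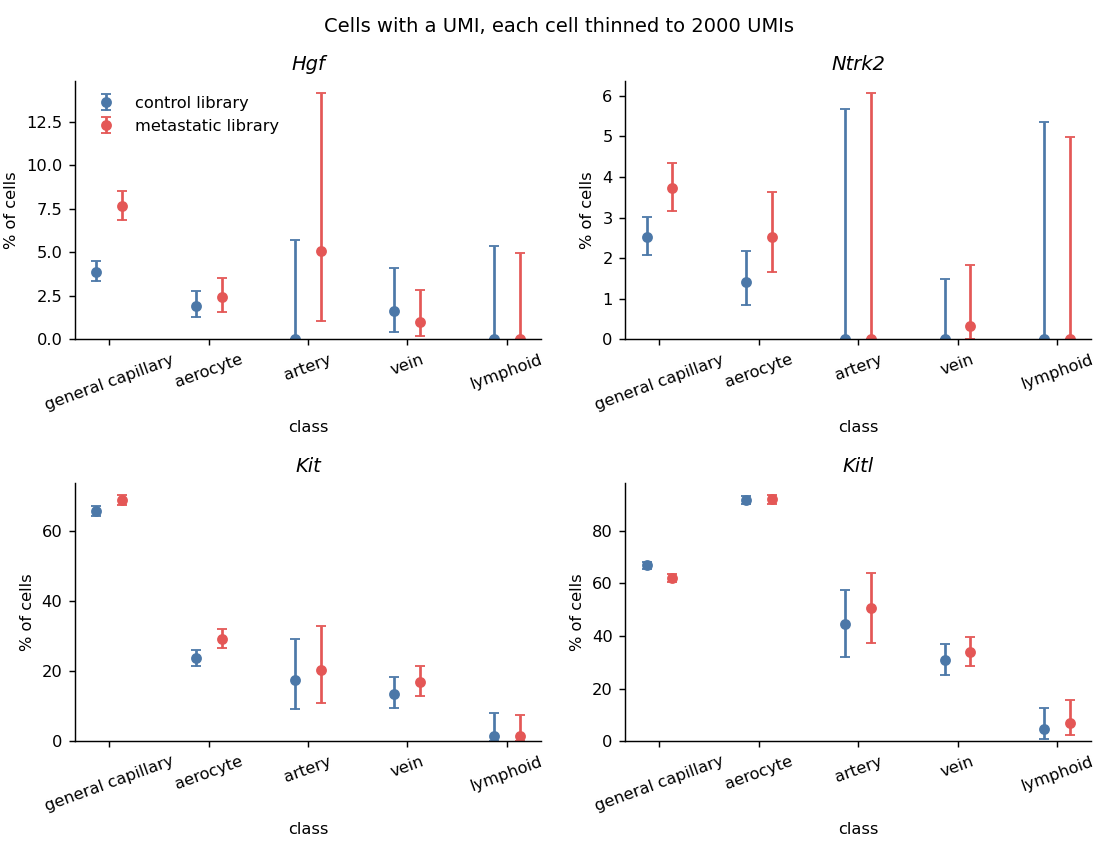
Share of cells with at least 1 UMI after thinning to 2000 UMIs (vertical axis, %), by class and for lymphoid cells (horizontal axis), with the control library in blue, the metastatic library in red and exact 95% binomial intervals. Hgf goes from 3.90% to 7.66% in general capillary cells, and the lymphoid intervals reach 5.36%.

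Kitl was detected at similar shares in gCap cells with and without its receptor. It was found in 66.5% of control gCap cells with Kit and in 68.0% of those without, and in 61.6% and 63.1% of the metastatic cells. Kit was detected in 78.9% (74.0–83.3) of metastatic gCap cells with Hgf against 68.1% (66.6–69.6) of those without. In control gCap the shares were 69.9% (62.7–76.5) and 65.6% (64.2–67.0). Hgf was detected in 13.8% (8.76–20.3) of metastatic gCap cells with Ntrk2 and in 7.42% (6.62–8.29) of those without. In control, 2 of 118 cells with Ntrk2 had Hgf, a share of 1.69% (0.206–5.99), against 3.96% (3.41–4.57) of cells without Ntrk2. The control shares thus ran the other way, with overlapping intervals.

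The study named a reactive capillary state (rCap), and gCap cells with at least 3 of its genes after thinning (283 control, 425 metastatic) were compared with the rest. Kit stood at 651 (616–687) in control and 889 (857–923) in metastatic rCap-positive cells, against 613 and 696 in the negative ones. Ntrk2 ran the other way, at 9.05 (5.36–14.3) and 12.9 (9.28–17.5) against 14.9 (13.5–16.4) and 23.0 (21.2–25.0). For Kit, with 604–622 and 686–707 in the negative cells, and for Ntrk2 the control intervals overlapped and the metastatic ones did not. Kitl was lower in rCap-positive cells of both libraries, at 575 (542–609) and 567 (541–594) against 672 (663–682) and 622 (612–631). Hgf stood at 23.6 and 44.2 against 20.7 and 44.6, with overlapping intervals. Without the rCap-positive cells the library ratio of Kit in gCap was 0.18 on the log2 scale and that of Hgf 1.11.

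Ntrk2 was also read outside the classes. Cells outside every class that carried 3 or more endothelial markers and no other cell type's markers (365 control, 473 metastatic) had Ntrk2 at 26.5 (19.3–35.6) and 52.9 (43.8–63.2) CPM, above its gCap levels in either library. Hgf stood at 16.3 (10.7–23.7) and 40.1 (32.3–49.2) in these cells, Kit at 476 and 591, and Kitl at 550 and 623. Among the few other cells, Hgf had 6 and 15 UMIs in 42 and 42 monocyte or macrophage cells and 0 and 12 in 13 and 21 mesenchymal cells.

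The HGF receptor and the TrkB ligands had few UMIs in gCap. Met, the HGF receptor, had 28 and 20 UMIs in all gCap cells. Bdnf and Ntf5, the TrkB ligands, had 9 and 10 and 2 and 1. Ngfr, the low-affinity neurotrophin receptor, had 0 UMIs in both. Plat and Plau encode plasminogen activators, which can also activate HGF: Plat stood at 47.5 and 43.2 CPM in gCap, and Plau, with 2 and 14 UMIs there, at 3.53 (2.52–4.81) and 6.71 (5.16–8.59) in aCap. Cd44, a coreceptor of MET, stood at 19.96 and 24.7 in gCap and at 5.03 (3.81–6.52) and 12.1 (10.02–14.6) in aCap.

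Of the HGF list, 7 of 15 genes were compared in gCap, and 1 was past 1.5-fold higher, Hgf itself, and 0 lower, where 4.62% and 2.36% of all genes were. The median log2 ratio was -0.02 without Hgf, against 0.02 over all genes. In aCap 3 of the 6 genes compared were past the limit, Hgf, Plau and Cd44, where 3.99% of all genes were, with a median of 0.49, and of 0.10 without Hgf. Of the neurotrophin list, 7 of 16 were compared, and 1 was past the limit, Ntrk2 itself, with a median of -0.11 without it. Sort1, a sorting receptor for neurotrophins, was lower, at 44.6 and 32.8 CPM in gCap and 54.5 and 35.2 in aCap. Of the KIT list, 17 of 18 were compared and 0 were past the limit, and Lyn, a kinase downstream of KIT, stood at 117 and 168 CPM.

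Genes that report on signaling downstream of receptor kinases showed no common direction. The gCap shares over all genes, 4.62% higher and 2.36% lower, apply to each of these lists. In the list of RAS-MAPK feedback genes 1 of 11 was past 1.5-fold higher, the ERK phosphatase Dusp5 (10.1 and 15.4 CPM), 0 were lower, and the median log2 ratio was -0.01. Spry4, a feedback inhibitor, stood at 45.8 and 65.8 and its relative Spry1 at 114 and 80.5. In the PI3K-AKT list 1 of 12 was lower, the transcription factor Foxo3 (48.1 and 29.6). Among other receptor kinases 1 of 13 was higher, the VEGF receptor Kdr (234 and 374), and 1 lower, Fgfr3 (46.1 and 29.8).

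Over the 8 values of 4 classes in 2 libraries, the genes most like each member among 10745 were found by Pearson's r of log2(CPM + 1), which is given as a description. They were Phykpl (0.97), Ddah2 (0.96) and Ddx39b (0.96) for Hgf, and Nxpe3 (0.99), N4bp3 (0.98) and Rgs10 (0.97) for Ntrk2. For Kit they were Agap1 (0.98), Sh3gl2 (0.97) and Mlec (0.96), and for Kitl Dync1h1, Esam and Ier3ip1 (all 0.99). Kit and Kitl had an r of 0.37 with each other, and Kit and Ntrk2 of 0.84. All 8 values come from 2 libraries and share their depth, and the arterial ones rest on few cells.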

How the data were processed

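PECAM1-sorted lung cells of 2 pooled mice per library were profiled with a 10x Genomics 3′ kit, named as v2 in the labels, although the deposited lists hold 6794880 barcodes, more than the list of that version. The deposited values are raw UMI counts per gene and barcode. The authors made them with Cell Ranger on mm10, with no cell calling or normalization (version 3.1.0 per the file headers; the annotation release is not given in the sources used here). Members, classes and gene lists were chosen with earlier results of these data known, and the rCap genes were chosen by the study on data that include these libraries. The rule's last clause was read as excluding cells of the other 3 classes.

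UMIs were summed per class and library and scaled to 1000000 (CPM). Exact Poisson, conditional binomial and Clopper-Pearson intervals (95%) cover counting error only. With 1 library per group no test was possible. Genes were compared when both libraries or classes together held at least 50 UMIs, and called past the limit at 1.5-fold. Named genes are the members, their partners, list genes past 1.5-fold in gCap and the 3 genes most like each member with at least 200 UMIs. Others named from the lists (Sort1, Lyn, Plat, Plau, Cd44, Spry1 and Spry4) were chosen after their values were seen. Cells were thinned at random to 2000 UMIs for shares. Doublets were kept, and an alternative left out 407 and 334 barcodes scored against simulated doublets. TMM factors came from edgeR 4.0.16 and median-of-ratios factors from DESeq2 1.42.0. The calculations were tested on simulated data (Python 3.11.15, R 4.3.3). One gene of the neurotrophin list is not reported here.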

Additional observations from a re-analysis of the deposited data

How the results depend on the processing

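No paired analysis was possible because each group has 1 library and the groups share a single replicate number. With 1 library per group, none was left out in turn. Hgf and Ntrk2 had under 50 UMIs over both libraries in arteries (63 and 59 cells) and in veins, and were not compared there.

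In gCap, the library ratios kept their direction in all 14 alternatives other than free RNA at the median gene, with log2 ratios of 1.07 to 1.12 for Hgf, 0.40 to 0.92 for Ntrk2, 0.17 to 0.23 for Kit and -0.14 to -0.11 for Kitl. Ntrk2 moved to 0.92 with 3 or more markers and to 0.40 in cells of 4000 to 8000 UMIs, and Kit to 0.17 in the latter and to 0.18 without rCap-positive cells. TMM shifted the median of all genes from 0.02 to 0.00 in gCap.

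Free RNA at the median gene, whose summary over genes was not fixed beforehand, gave -1.21 for Hgf, -1.58 for Ntrk2, -1.99 for Kit and -2.21 for Kitl in gCap, and -0.18 for Kit and -0.46 for Kitl in aCap. It moved the control ratios of aCap to gCap to -3.23 for Hgf, -2.84 for Ntrk2, -3.45 for Kit and 0.21 for Kitl. Its share of free RNA was 86.6% in control and 30.8% in metastatic gCap, the median over 7 genes. With this setting the library ratio of Hgf in aCap fell to 0.17, under the 1.5-fold limit. The other 13 alternatives gave 0.82 to 1.07. The lowest gene, the platelet, depth and rCap settings were added after the data were seen.

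The other control ratios of aCap to gCap that moved were, with 3 or more markers, -2.11 for Hgf, -2.47 for Kit and 1.73 for Kitl. Kit went to -1.66 without doublets, -1.55 without gCap cells bearing another marker, -1.55 as a mean over cells and -1.69 in cells of 4000 to 8000 UMIs, and Kitl to 1.67, 1.65 and 1.70 in the first, second and last of these. Venous Kit turned to 0.11 with 3 or more markers and to 0.24 in cells of 4000 to 8000 UMIs. The causes were not tested.

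The difference between libraries in the share of gCap cells with Hgf was 1.53 percentage points at 1000 UMIs per cell and 10.4 without thinning. For Ntrk2 it was 0.0896, with overlapping intervals, and 2.94, and for Kitl -2.16 without thinning. In gCap, Hgf was past a limit of 2-fold as a point value, at 2.13-fold (1.94–2.35). The members were chosen from this contrast, so nothing is read from that.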
